A study of Mus musculus with 6 samples.

Results

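The miR-34 family of the mouse is made from 3 hairpins, Mir34a, Mir34b and Mir34c, each of which can give a mature miRNA from its 5p arm and another from its 3p arm. All 6 mature arms were found by name among the 1978 known miRNAs of a small RNA count table. They are mmu-miR-34a-5p, mmu-miR-34a-3p, mmu-miR-34b-5p, mmu-miR-34b-3p, mmu-miR-34c-5p and mmu-miR-34c-3p, written below without the species prefix. All 6 were among the 619 known miRNAs that passed the expression filter. The 3 hypoxia libraries came from c-kit+ cardiac progenitor cells kept for 12 hours in hypoxic culture, and the 3 control libraries from such cells labelled 0 hours. Both groups were wild-type cells taken from hearts of healthy male C57BL/6 mice aged 4 to 6 weeks, dissociated with enzymes and sorted magnetically with an antibody to c-kit, the receptor tyrosine kinase Kit. The titles number the libraries of each group as biological replicates without naming animals or cultures. The p-values therefore reflect library-to-library spread, part of which may be technical. The sources used here do not state the oxygen level. Unless control cells were also cultured for that time, hypoxia and time in culture cannot be told apart. The extraction protocol speaks of exosomes and the series design of cells, which was not settled.

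Each table column carries a prefix, 0 or 1, followed by one of the letters A, B and C. Prefix 0 was taken to mean control, labelled 0 hours, and prefix 1 to mean hypoxia, and every direction below rests on that reading. Library totals over known miRNAs lay between 12285970 and 16975987 counts. Levels are given as CPM, counts normalised for depth with TMM factors, and 3 counts in the shallowest library correspond to 0.244 CPM. As a check of the treatment, miR-210-3p, a target of the hypoxia-inducible factors, had 674, 468 and 440 CPM in hypoxia libraries A, B and C, against 188, 296 and 212 CPM in control A, B and C. It did not pass edgeR's quasi-likelihood test over all 619 miRNAs (adjusted p = 0.65), and passed with the letter as a block (edgeR adjusted p = 0.024). Sums of marker miRNAs overlapped between the groups for each of the other cell types sought. For 5 cardiomyocyte markers they were 135, 173 and 102 CPM in hypoxia A, B and C, against 84.4, 171 and 76.4 CPM in control A, B and C. That sum was higher in hypoxia in 3 of 3 letters, as were 20.0% of single tested miRNAs. Of the 5 markers 3 were tested, and these lay above 0, as did 51.2% of all tested miRNAs. None was called, where 0 of all 619 were called. The part of this sum in the values of the miR-34 arms below was not tested. The 4 fibroblast and smooth muscle markers summed to 45246, 30035 and 23627 CPM in hypoxia A, B and C. In control A, B and C they summed to 53328, 27763 and 23797 CPM. Library A had the highest of these sums in each group. The 2 endothelial arms of miR-126a summed to 200685 to 238090 CPM in hypoxia and 227224 to 249670 CPM in control. The 7 blood cell markers summed to 42.6 to 56.8 CPM in hypoxia and 49.4 to 55.0 CPM in control, and the 5 epithelial markers to 6.38 to 7.84 CPM in hypoxia and 4.37 to 10.3 CPM in control. None of these markers was at 0 in all libraries, and the c-kit label itself cannot be checked on miRNA counts.

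Members of this family are known as direct transcriptional targets of the tumour suppressor p53. By pairing with messenger RNAs through a common seed, bases 2 to 8 of the mature miRNA, the 5p arms repress genes of cell cycle entry and survival such as Ccnd1, Cdk6, Bcl2 and Met. Mir34a is broadly expressed, whereas Mir34b and Mir34c come from one shared transcript and are best known from testis and from ciliated epithelia. In mouse heart, miR-34a is known to increase with age and after infarction, and Kit has been described as a miR-34a target in human cancer cells.

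The mature sequences of 5 of the 6 members were matched in RefSeq (GRCm38.p6) and are shown because they divide the family into seed groups, with the seed in capitals. For miR-34c-5p only the name is given.
miR-34a-5p: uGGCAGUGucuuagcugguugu
miR-34b-5p: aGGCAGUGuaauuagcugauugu
miR-34a-3p: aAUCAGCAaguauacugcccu
miR-34b-3p: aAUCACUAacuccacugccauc
miR-34c-3p: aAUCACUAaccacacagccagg
miR-449a-5p: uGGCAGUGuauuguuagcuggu
miR-449c-5p: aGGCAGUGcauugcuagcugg

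The seed GGCAGUG occurred in 4 of the 1679 mature miRNAs with a sequence, miR-34a-5p, miR-34b-5p and the last 2 lines above, which are the 5p arms of the related miR-449 hairpins of ciliated cells. The seed AUCACUA was shared by miR-34b-3p and miR-34c-3p and by no other of the 1679, and AUCAGCA was found in miR-34a-3p alone. Aligned over their whole length, miR-34a-5p and miR-34b-5p had 19 identical bases in 23 alignment columns, and miR-34b-3p and miR-34c-3p had 17 in 22, the first 10 of them without a break.

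The hairpins lie at 2 loci. Mir34a is at chr4:150068454-150068555 on the plus strand of GRCm38, where its 3' end overlaps an exon of Gm37795, a gene model of the class to be experimentally checked. Mir34b is at chr9:51103562-51103645 and Mir34c at chr9:51103034-51103110, both on the minus strand and 451 bp apart. Both lie opposite an intron of Btg4, a protein-coding gene of the plus strand. The hairpins of Mir34a and Mir34b are printed with their 2 mature arms in capitals, the 5p arm first, because the arms of one hairpin differed in their values.
Mir34a: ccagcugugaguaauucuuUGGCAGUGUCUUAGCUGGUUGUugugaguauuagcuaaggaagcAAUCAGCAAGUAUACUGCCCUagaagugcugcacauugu
Mir34b: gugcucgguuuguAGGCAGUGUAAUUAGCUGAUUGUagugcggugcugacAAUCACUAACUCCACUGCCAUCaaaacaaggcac

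Together the 6 arms held 0.366% of known miRNA counts in hypoxia A (exact Clopper-Pearson 95% interval 0.363 to 0.369), 0.285% in hypoxia B (0.283 to 0.288) and 0.329% in hypoxia C (0.325 to 0.332). In control they held 0.283% in A (0.280 to 0.286), 0.237% in B (0.235 to 0.240) and 0.231% in C (0.228 to 0.233). These intervals reflect counting error alone and treat every read as a separate molecule. Reads copied by PCR are not separate molecules, so the intervals may be too narrow. The order of levels was the same in all 6 libraries, miR-34c-5p, miR-34a-5p, miR-34b-5p, miR-34b-3p, miR-34c-3p and miR-34a-3p from high to low. A count here is 1 whole mature miRNA, so levels were not divided by length, and differences in how well each sequence is captured were not measured. The neighbours closest to each other were miR-34c-5p and miR-34a-5p, which differed by 1.25 times in hypoxia C, the library where they were nearest. By count the leading arm, miR-34c-5p, ranked between 44 and 62 among all known miRNAs, and miR-34a-3p between 423 and 480.

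The arms of the Mir34a locus were described first. miR-34a-5p, the most studied member, had 824, 1074 and 1182 CPM in hypoxia A, B and C, against 719, 844 and 770 CPM in control A, B and C. Hypoxia A lay below control B, so the groups overlapped, while each hypoxia library was above the control library of its letter. Scaled by library size alone the groups did not overlap, at 879, 1031 and 1236 CPM in hypoxia and 723, 756 and 798 CPM in control, a pattern shared by 8.40% of all tested miRNAs. The mean was 1027 ± 183 CPM in hypoxia and 778 ± 62.8 CPM in control (SD, n = 3 each). The log2 fold change of 0.40 (SE 0.19) did not pass edgeR's test over all miRNAs (adjusted p = 0.73). Within letters A, B and C the log2 differences were 0.20, 0.35 and 0.62, and without hypoxia C the fold change was 0.27.

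The opposite arm, miR-34a-3p, was rare, with 52, 41 and 71 counts in hypoxia A, B and C and 30, 39 and 51 counts in control. Its level was 3.60 ± 1.38 CPM in hypoxia and 2.89 ± 0.42 CPM in control (SD, n = 3 each). The groups overlapped, and hypoxia B was below control B. The log2 fold change was 0.31 (SE 0.34, edgeR adjusted p = 0.98) and was -0.068 without hypoxia C, the highest library.

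At the Mir34b/34c locus the 2 main arms kept closely to each other. miR-34c-5p, the most abundant member, had 2036, 1473 and 1479 CPM in hypoxia A, B and C, against 1638, 1409 and 1110 CPM in control A, B and C. In both groups library A was the highest, and control A exceeded hypoxia B and C. The log2 fold change was 0.26 (SE 0.21, edgeR adjusted p = 0.92), with 0.31, 0.06 and 0.41 in letters A, B and C. It was 0.088 without hypoxia A and 0.12 without control C.

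miR-34b-5p, made from the neighbouring hairpin, had 449, 303 and 343 CPM in hypoxia A, B and C, against 323, 264 and 222 CPM in control A, B and C. Its groups also overlapped through control A, which lay above hypoxia B, and library A was again the highest of both groups. The log2 fold change was 0.44 (SE 0.22, edgeR adjusted p = 0.77), with 0.48, 0.20 and 0.63 in the 3 letters, and it was 0.26 without hypoxia A.

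The 3p arms of the same locus did not share that direction. miR-34b-3p had 94.9, 96.9 and 109 CPM in hypoxia A, B and C, against 104, 105 and 98.7 CPM in control A, B and C. It varied least of the 6 members, with a coefficient of variation of 7.59% in hypoxia and 3.43% in control. Its log2 fold change was -0.03 (SE 0.18, edgeR adjusted p = 0.99), and the sign turned with library size scaling (0.034) and without hypoxia A (0.00).

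miR-34c-3p had 26.3, 23.7 and 22.3 CPM in hypoxia A, B and C, against 28.9, 26.1 and 24.9 CPM in control A, B and C. The groups overlapped, but each hypoxia library was below the control library of its letter, by log2 differences of -0.14, -0.14 and -0.16. The share of all tested miRNAs lower in 3 of 3 letters was not counted. The log2 fold change was -0.15 (SE 0.18, edgeR adjusted p = 0.99), negative also under each scaling tried. With the letter as a block it was -0.15 (SE 0.12, edgeR adjusted p = 0.59).

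**Figure D1:**
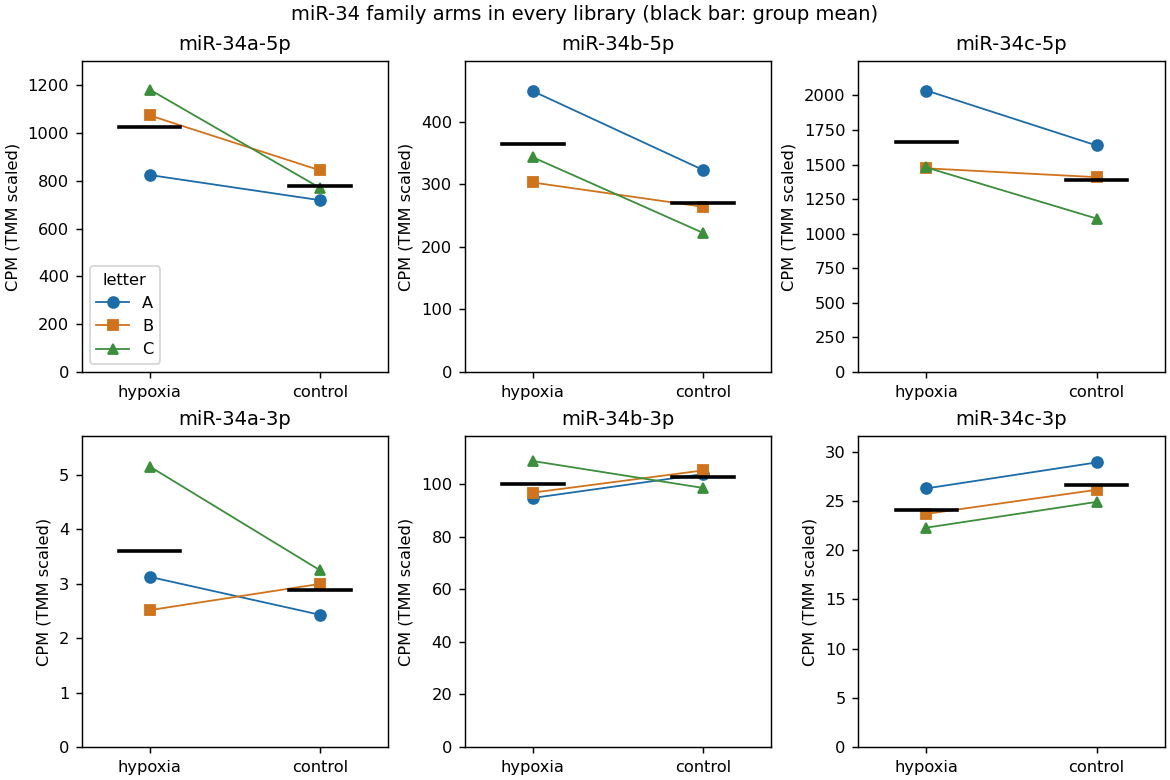
Level of each miR-34 arm in CPM (linear axis from 0), hypoxia on the left and control on the right, with 1 point per library, lines joining libraries of the same letter and black bars for group means (n = 3 each). For the 3 upper panels, the 5p arms, every line lies higher on the hypoxia side, and for miR-34c-3p every line lies lower, while all 6 arms overlap between the groups.

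Set against all miRNAs, none of the 6 members was called by edgeR, where 0 of the 619 tested miRNAs were called (0.0%). At an unadjusted p under 0.05 there were also 0 members, against 42 of all tested (6.79%), and DESeq2 without a block called 0 members and 1 miRNA in all. The median log2 fold change was 0.28 over the 6 members and 0.01 over all 619. It was 0.40 over the 3 5p arms, all above 0, and -0.03 over the 3 3p arms, of which 1 was above 0, where 51.2% of all tested miRNAs lay above 0. A log2 fold change as high as that of miR-34b-5p was reached by 62 of the 619, as high as that of miR-34a-5p by 75, and as high as that of miR-34c-5p by 131.

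All 3 of the 5p arms were higher in hypoxia within each letter, a pattern that 20.0% of the tested miRNAs showed. In edgeR with letters entered as a block, 14 of the 619 were called (2.26%), 6 higher and 8 lower, and none of these was a miR-34 arm. The blocked log2 fold changes were 0.39 (SE 0.12, adjusted p = 0.10) for miR-34a-5p, 0.43 (SE 0.12, adjusted p = 0.082) for miR-34b-5p and 0.26 (SE 0.11, adjusted p = 0.21) for miR-34c-5p, all from edgeR. Unadjusted, these 3 had p under 0.05 in that fit and the 3p arms did not, beside 21.3% of all tested miRNAs. DESeq2 with the block called 36 of the 528 miRNAs to which it gave an adjusted p (6.82%), among them 1 of the 6 members, miR-34b-5p (log2 fold change 0.42, DESeq2 adjusted p = 0.024). With the block and library size scaling, which moved the median of all miRNAs by 0.07, edgeR called miR-34a-5p (0.45, adjusted p = 0.024) and miR-34b-5p (0.50, adjusted p = 0.021), and 55 miRNAs in all (8.89%), 44 higher and 11 lower.

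**Figure D2:**
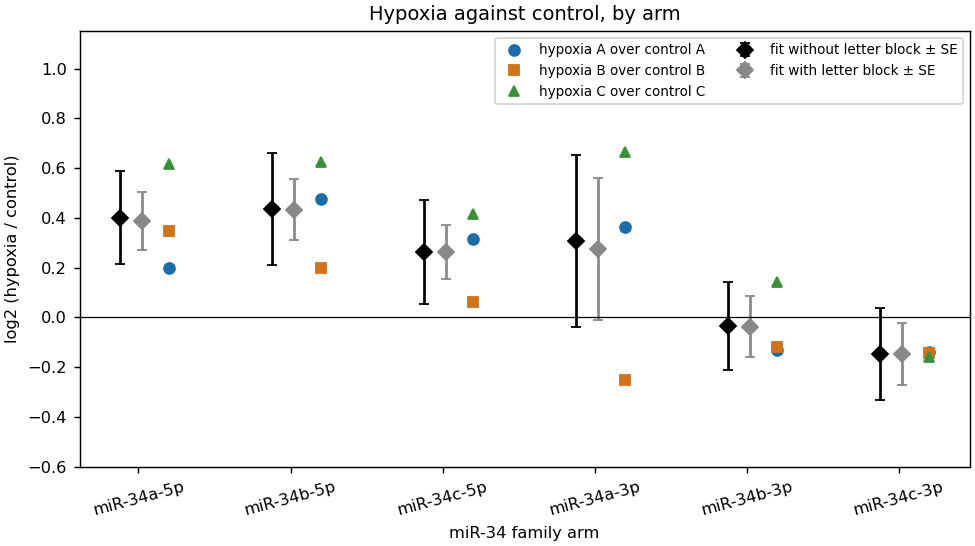
Log2 ratio of hypoxia to control for each arm, with black and grey diamonds for the edgeR fits without and with the letter as a block (bars are 1 standard error) and coloured points for each letter's hypoxia library over its control library. The 5p arms have all 3 letters above 0, miR-34a-3p is split with letter B below 0, and miR-34c-3p has all 3 letters between -0.14 and -0.16.

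**Figure D3:**
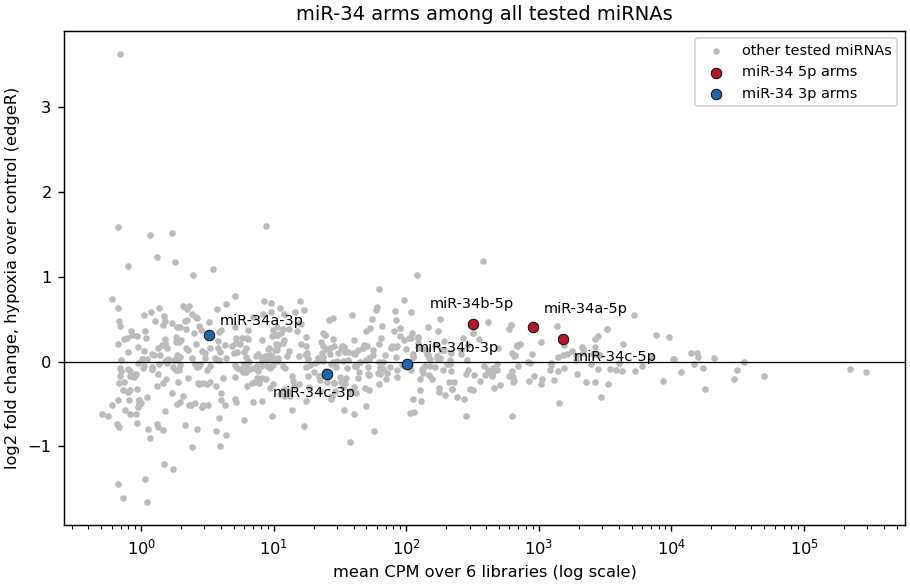
Log2 fold change of hypoxia over control (edgeR, linear axis) against mean CPM over 6 libraries (log axis) for the 619 tested miRNAs, with the 5p arms in red and the 3p arms in blue. The 5p arms, between 0.26 and 0.44, sit inside the cloud of other miRNAs.

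The 5p and 3p arms of a hairpin are cut from the same precursor. Both are counted in the same library, so their ratio needs no scaling between libraries. For Mir34b there were 0.211, 0.320 and 0.318 3p counts per 5p count in hypoxia A, B and C, against 0.322, 0.399 and 0.444 in control A, B and C. The hypoxia values were all below the control values, the nearest being hypoxia B and control A. The mean log2 ratio was -1.85 ± 0.34 in hypoxia and -1.38 ± 0.24 in control (SD, n = 3 each), a difference of -0.47 (two-sided exact permutation test, p = 0.1, the smallest that 3 libraries against 3 allow).

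For Mir34c the 5p arm exceeded the 3p arm 77.4, 62.1 and 66.3 times in hypoxia A, B and C, against 56.6, 53.8 and 44.5 times in control A, B and C. Here too the groups did not overlap. The mean log2 ratio of 3p to 5p was -6.09 ± 0.16 in hypoxia and -5.68 ± 0.18 in control (SD, n = 3 each), a difference of -0.41 (two-sided exact permutation p = 0.1, the smallest possible). Within the letters the differences were -0.61, -0.32 and -0.48 for Mir34b and -0.45, -0.21 and -0.57 for Mir34c in A, B and C. A ratio lower in hypoxia in 3 of 3 letters was found for 19.0% of the 189 miRNAs with both arms tested. Without hypoxia A the difference of Mir34b was -0.27.

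Mir34a gave no such pattern. Its 5p arm exceeded its 3p arm 261, 422 and 228 times in hypoxia A, B and C, against 291, 278 and 235 times in control A, B and C. The difference of the log2 ratio of 3p to 5p was -0.13 (two-sided exact permutation p = 0.9), and 0.13 without hypoxia B, and it rested on 30 to 71 counts of the 3p arm.

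Among these 189 miRNAs, the 3p to 5p ratio was lower in hypoxia without overlap in 8.47%, and without overlap in either direction in 18.5%. The median difference over the 189 was 0.02, with quartiles of -0.24 and 0.28. A difference as low as that of Mir34b was found in 18 of the 189 and as low as that of Mir34c in 22. Adjusted over the 9 ratio comparisons made, which include the locus ratio with 5p or 3p arms alone, the permutation p was 0.3 for both Mir34b and Mir34c and 0.9 for Mir34a.

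**Figure D4:**
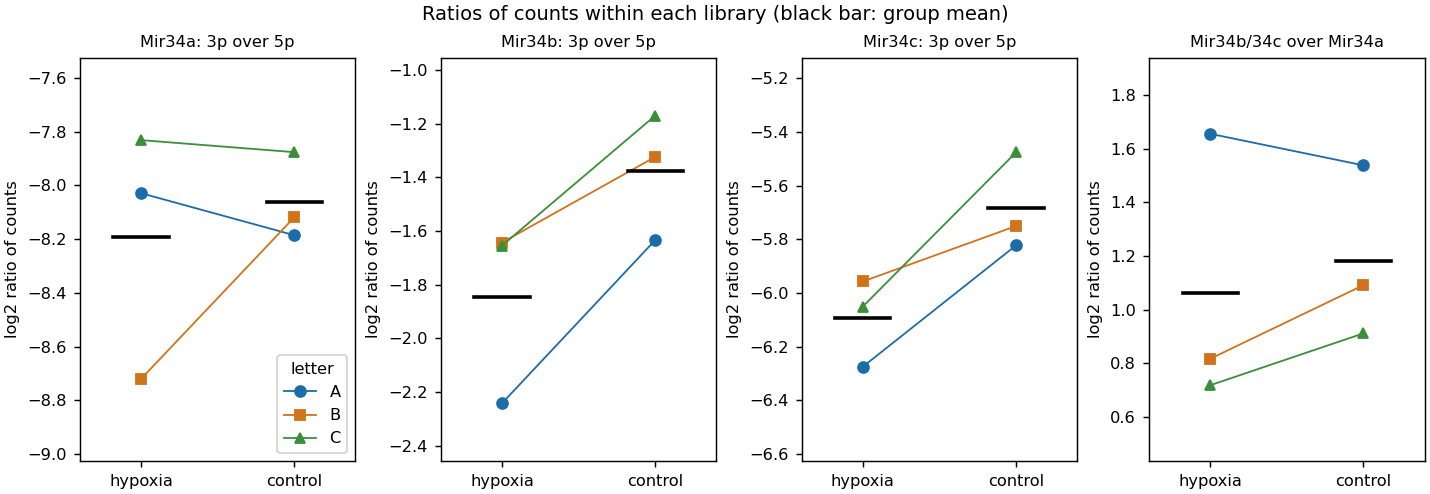
Log2 ratio of counts within each library, hypoxia on the left and control on the right, lines joining libraries of the same letter and black bars for group means (n = 3 each); all 4 panels span the same 1.5 log2 units. In the panels of Mir34b and Mir34c all hypoxia points are below all control points, whereas the panels of Mir34a and of the 2 loci overlap.

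The loci themselves were compared by summing both arms of Mir34b and Mir34c over both arms of Mir34a. The ratio was 3.15, 1.76 and 1.65 in hypoxia A, B and C, against 2.90, 2.13 and 1.88 in control A, B and C. Library A was the highest in each group, and the groups overlapped. The mean log2 ratio was 1.06 ± 0.51 in hypoxia and 1.18 ± 0.32 in control (SD, n = 3 each), a difference of -0.12 (two-sided exact permutation p = 0.7). The difference became 0.062 without control A, 0.0067 without hypoxia B and 0.056 without hypoxia C, so these data give no direction for a difference in response between the loci.

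Within the Mir34b/34c locus, the Mir34b hairpin gave 0.264, 0.267 and 0.301 counts per count of Mir34c in hypoxia A, B and C, against 0.256, 0.257 and 0.283 in control A, B and C. The values were close in every library, and the log2 difference between groups was 0.06 (two-sided exact permutation p = 0.5). The arms split unevenly between the hairpins. miR-34c-5p was 4.54, 4.86 and 4.31 times as abundant as miR-34b-5p in hypoxia A, B and C, against 5.07, 5.34 and 4.99 times in control A, B and C. These groups did not overlap, with a log2 difference of 0.17 for miR-34b-5p over miR-34c-5p (two-sided exact permutation p = 0.1, the smallest possible, and 0.3 adjusted over the 9). Of the 3p arms it was miR-34b-3p that was the more abundant, 3.61, 4.09 and 4.88 times the level of miR-34c-3p in hypoxia A, B and C, against 3.59, 4.03 and 3.96 times in control.

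The make-up of the family differed between letters. miR-34a-5p made up 24.0%, 36.1% and 37.6% of all miR-34 counts in hypoxia A, B and C, against 25.5%, 31.8% and 34.6% in control A, B and C. miR-34c-5p made up 59.3%, 49.5% and 47.1% in hypoxia A, B and C, against 58.2%, 53.1% and 49.8% in control. In both groups library A had the lowest share of miR-34a-5p and the highest share of miR-34c-5p. Library A also had the highest fibroblast and smooth muscle marker sum of each group. Most of it was miR-143-3p, with 41052 of 45246 CPM in hypoxia A and 49636 of 53328 CPM in control A. Library A was lowest in each group for the miR-449 markers of ciliated epithelium, at 4.33 CPM in hypoxia and 5.99 CPM in control. It was also lowest for the blood cell markers, at 42.6 CPM in hypoxia and 49.4 CPM in control. The part of these marker sums in the shares was not tested. The sources used here do not say whether a letter stands for a culture, an animal or a processing day, and its part in these values was not tested.

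The summed level of miRNAs with the shared 5p seed, counting miR-34c-5p as a family member by name, was 3313, 2858 and 3013 CPM in hypoxia A, B and C, against 2686, 2525 and 2109 CPM in control A, B and C. The means were 3061 ± 231 CPM in hypoxia and 2440 ± 298 CPM in control (SD, n = 3 each). The lowest hypoxia sum was above the highest control sum, as were the levels of 7.43% of single tested miRNAs, and no p is given for a sum over chosen members. At least 99.7% of the sum in every library came from the 3 miR-34 arms. The 2 miR-449 arms were rare. miR-449a-5p had 52, 125 and 110 counts in hypoxia A, B and C, against 61, 91 and 97 counts in control (log2 fold change 0.05, SE 0.37, edgeR adjusted p = 0.99). miR-449c-5p had 14 to 19 counts in hypoxia and 13 to 18 counts in control, and miR-449b had 0 to 1 counts in hypoxia and 0 to 2 counts in control. These 3 were also the markers sought for ciliated epithelium, a known site of the Mir34b/34c locus, and their sum was 4.33 to 9.07 CPM in hypoxia and 5.99 to 8.38 CPM in control.

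Across the 6 libraries, the profile of miR-34b-5p was nearer to that of miR-34c-5p than any of 357 other miRNAs of at least 10 CPM. The root mean square difference of their centred log2 CPM was 0.10, against 0.11 for the nearest other, miR-92b-3p, and 0.37 for the median of the 357. The next were miR-30d-3p (0.15) and miR-181a-1-3p (0.15). Nearest to miR-34a-5p were miR-107-3p (0.13), miR-26b-5p (0.14) and miR-497a-5p (0.14), with a median of 0.34 over the 357. The distance between miR-34a-5p and miR-34c-5p was 0.37, and 202 of the 357 lay as near to miR-34a-5p. miR-107-3p, encoded in an intron of a pantothenate kinase gene, had 159, 170 and 171 CPM in hypoxia A, B and C, against 123, 128 and 127 CPM in control A, B and C. Its groups did not overlap, a pattern in the upward direction of 7.43% of tested miRNAs, and its log2 fold change was 0.40 (SE 0.17, edgeR adjusted p = 0.72). It was picked for nearness to miR-34a-5p over these same 6 libraries. A fold change near that of miR-34a-5p therefore comes partly with the choice, and the share is no measure for it.

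Other miRNAs linked to p53 were counted on 2 lists drawn from general knowledge. Of 11 miRNAs described as raised by p53 in transcription or processing, 10 were tested. Of these, 5 lay above 0 and 5 below, beside 51.2% of all tested miRNAs above 0. None was called, where 0 of all 619 were called. The median log2 fold change of the list was -0.03, where the median of all tested miRNAs was 0.01. Its most abundant members were miR-143-3p, abundant in smooth muscle (30332 ± 9845 CPM in hypoxia and 32404 ± 15070 CPM in control), miR-22-3p (21331 ± 5526 CPM in hypoxia and 20715 ± 1382 CPM in control) and miR-16-5p, a repressor of cyclins (1557 ± 225 CPM in hypoxia and 1168 ± 173 CPM in control, SD, n = 3 each). Their log2 fold changes were -0.10, 0.04 and 0.41. The widest value on that list, 0.72 (SE 0.26, edgeR adjusted p = 0.65) for miR-15a-5p, was singled out after the values were seen. miR-107-3p is on the same list.

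Of 7 miRNAs described as acting on p53 messenger RNA, 6 were tested, 2 lay above 0 and 4 below, with a median of -0.04. None was called, where 0 of all 619 were called. The most abundant were miR-125b-5p (10467 ± 432 CPM in hypoxia and 10277 ± 532 CPM in control, SD, n = 3 each), miR-30d-5p and miR-25-3p, with log2 fold changes of 0.03, -0.23 and -0.02. In the blocked edgeR fit 0 members of either list were called, beside 14 of all 619 (2.26%). The lowest edgeR adjusted p in that fit were 0.060 for miR-16-5p, 0.068 for miR-15a-5p and 0.082 for miR-107-3p. All were higher in hypoxia, were on the list of miRNAs raised by p53 and were singled out after the values were seen.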

How the data were processed

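Small RNA libraries, 3 of hypoxia and 3 of control cells, were given as 1 table of known mature miRNAs. The authors deposited raw counts, whole numbers with 1 column per library. Per the submitters' processing notes, mm10, DESeq2 and bcl2fastq 2.0 were used, their roles unstated. The sources used here name no aligner or counting program and do not say how multiply matching reads were treated. In hypoxia C, miR-34c-5p had 1.25 times the counts of miR-34a-5p, inside the limit of 1.5 times treated as the same count. This pair was also inside that limit in hypoxia B (24010 and 17504 counts) and control C (17426 and 12099 counts). Every other pair of members differed by at least 1.84 times in every library. Whether reads were shared between members was not tested. A second table, of predicted miRNAs, was not used here.

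Counts were fitted in R 4.3.3 with edgeR 4.0.16 (filterByExpr, TMM, quasi-likelihood test, Benjamini-Hochberg over all 619 miRNAs at 0.05). Each standard error is the size of the log2 fold change over the square root of F. CPM uses TMM factors. Ratios used counts plus 0.5 and two-sided exact permutation tests. The fit was tested on simulated counts. Alternatives used limma 3.58.1, DESeq2 1.42.0, other scalings, no filter and single libraries left out. Chi-square per degree of freedom between libraries was at least 85.9, so none was a copy of another.

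Column letters match no replicate number in the labels. Deviations from group means correlated between same-lettered libraries over 619 miRNAs with r of 0.52 (A), 0.43 (B) and 0.28 (C), and from -0.44 to 0.12 between unlike letters. All same-letter values exceeded the limit of 0.1, as did hypoxia B with control C (0.12). Letters were used as pairs (replicate block). That pairing comes from column names and values, not from the labels, and the blocked p-values rest on it.

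Named miRNAs were all 6 members, the 3 nearest profiles of miR-34a-5p and of miR-34c-5p at a mean of at least 10 CPM, called members and the 3 most abundant of each p53 list, other miRNAs with the miR-34 seed, and miR-210-3p. Members, lists and rules were chosen with earlier results of these data known. Loci were taken from GENCODE M21 and sequences from RefSeq, both on GRCm38, the Genome Reference Consortium name of mm10.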

Additional observations from a re-analysis of the deposited data

How the results depend on the processing

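The log2 fold changes of miR-34a-5p, miR-34b-5p, miR-34c-5p and miR-34c-3p kept their sign under all 20 alternatives tried. miR-34a-5p ranged from 0.26 to 0.53, miR-34b-5p from 0.26 to 0.56, miR-34c-5p from 0.09 to 0.37 and miR-34c-3p from -0.22 to -0.08. Of the members, 0 were called without a block. The replicate block in DESeq2 called 1 (miR-34b-5p, 0.42), and the block with library size scaling, added after the data were seen, called 2 (miR-34a-5p, 0.45, and miR-34b-5p, 0.50). Over all miRNAs the count of calls was 0, against 4 with no expression filter, 1 in DESeq2, 14 with the replicate block, 36 with the block in DESeq2, and, with the block, 13 under RLE, 43 under upper-quartile and 55 under library size scaling. Leaving out single libraries or pairs it ran from 0 to 23, with 0 in the blocked fit without pair A or pair C and 23 without pair B.

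Signs turned where values lay near 0. miR-34a-3p ran from -0.068 (without hypoxia C) to 0.50. miR-34b-3p reached 0.034 with library size scaling and 0.030 with that scaling and the block, and ran from -0.13 to 0.011 over left-out libraries and pairs. The locus ratio ran from -0.41 to 0.062 and the arm ratio of Mir34a from -0.31 to 0.13. The arm ratios of Mir34b (-0.60 to -0.27) and Mir34c (-0.48 to -0.31) kept their sign. Among the members, the replicate block changed no call beyond those named above. The cause of the changes in sign and in calls was not tested. Exact tests of 3 libraries against 3 cannot go below 0.1, nor sign-flip tests of 3 pairs below 0.25, and 30 to 71 counts limit miR-34a-3p.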
